A study of Mus musculus with 7 samples.

Results

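Osteoblast lineage cells were examined in single-cell RNA sequencing libraries of mouse noses at embryonic day 14.5. A cell was counted as a member when it held at least 1 unique molecule (UMI) of Runx2, at least 1 UMI of Sp7, Ibsp or Dmp1, and no UMI of the cartilage gene Acan or the epithelial gene Epcam. By this rule 1842 of 31465 kept cells were members, or 5.85%, and 1557 of them came from wild-type noses. Members with at least 2 UMIs of Ibsp or of Spp1 were called later (690 cells), and all other members were called early (1152 cells). The members were thus chosen by measured values of these 7 genes, none of which was tested. As a description, Runx2 stood at 217, 753, 1165 and 1137 CPM (counts per 1000000 UMIs) and Sp7 at 80.9, 173, 130.2 and 117 CPM in the members of the 4 wild-type captures used.

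Bone of the face forms mostly by direct conversion of neural crest mesenchyme into osteoblasts, without a cartilage template. The transcription factor Runx2 commits cells to the lineage, and Sp7 (osterix) acts after it. Osteoblasts then secrete type I collagen, and the alkaline phosphatase Alpl together with acidic matrix proteins such as bone sialoprotein (Ibsp), osteopontin (Spp1) and, later, osteocalcin (Bglap) and Dmp1 accompany mineral deposition.

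The wild-type (WT) libraries came from 5 whole noses of CD1 IGS mice, dissociated with papain and collagenase and frozen before capture on the 10x Genomics platform. A further 2 libraries came from 1 nose of a ProKR2iCre/R26tdTomato mouse, in which Cre is expressed from the Prokr2 gene and cells that have expressed it carry the tdTomato reporter. That cell suspension was divided into a sorted and an unsorted preparation, and the labels do not say which of the 2 libraries is which, so they are called reporter libraries 1 and 2 and described without a test. Their file names mark the first as the unsorted and the second as the sorted preparation, but no group was taken from file names. WT replicate 3 shared 7386 of its 7396 barcodes with replicate 4 and was left out, which leaves 4 WT captures (replicates 1, 2, 4 and 5). Any other pair of libraries shared at most 34 barcodes. The labels do not tie single noses or litters to captures, so p-values measure the spread between these captures, which may be technical.

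The members' total depth was 6909868, 3512691, 3631567 and 4164963 UMIs in WT captures 1, 2, 4 and 5, and 2188652 and 2020486 UMIs in reporter libraries 1 and 2. CPM are the UMIs of a gene summed over the cells of a class in 1 library and divided by all UMIs of those cells. Members were deeper than kept cells as a whole in each WT capture, with median UMIs per cell of 13800, 7630.5, 7707 and 15098 against 9027.5, 5126.5, 5849 and 11371, but not in reporter library 2 (11364 against 13073). Within the members, WT captures 1 and 2 stood apart from captures 4 and 5: their Ibsp level was 12072, 6228, 1791 and 1208 CPM and their Spp1 level 874, 276, 18.2 and 32.9 CPM in WT captures 1, 2, 4 and 5. Counts of the main gene lists are therefore also given for captures 4 and 5 alone, a comparison chosen after seeing the data.

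The label was checked on Alpl, the osteoblast marker that the rule did not use. Alpl stood at 286, 311, 273 and 293 CPM in the members of WT captures 1, 2, 4 and 5, and at 327 and 133 CPM in reporter libraries 1 and 2. In the other kept cells it stood at 35.6, 26.1, 38.7 and 39.6 CPM in the WT captures and 26.0 and 41.1 CPM in the reporter libraries. All 4 WT captures thus held nearly the same Alpl level in members, while reporter library 2 was the lowest. An Alpl UMI was found in 81.2%, 74.0%, 74.9% and 87.6% of the members of the WT captures, against 13.4%, 11.1%, 10.7% and 16.3% of epithelial cells with at least 2 Epcam UMIs. These epithelial cells served as a rough measure of free RNA, although their own Alpl expression and doublets among them were not tested.

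Across all genes, 2079 reached 50 CPM in the members of every WT capture, and 26 of these (1.25%) were at least 2-fold higher in members than in other kept cells in all 4. The genes of mineral formation led this description, with 4 of 7 past that fold: Ifitm5 (the bone-restricted membrane protein BRIL), Smpd3 (neutral sphingomyelinase 2, needed for normal mineralization), Panx3 (a channel protein of skeletal cells) and Alpl. The ratio of members to other cells ranged over the WT captures from 26.1 to 263 for Ifitm5, 22.02 to 61.9 for Smpd3, 15.8 to 63.0 for Panx3 and 7.06 to 11.9 for Alpl. Outside that list it was 11.1 to 28.7 for Fabp3, a fatty acid binding protein, 5.15 to 8.23 for Nrgn, a calmodulin-binding protein best known from neurons, and 4.40 to 10.3 for Rasgrp2, an exchange factor of Rap proteins. It was 3.52 to 7.28 for Tmem119, a membrane protein of osteoblasts and microglia, 3.04 to 6.13 for the integrin ligand Npnt, 2.82 to 6.07 for Creb3l1, a secretory-pathway transcription factor needed for bone collagen, and 2.82 to 4.07 for Cd200. The rule's own genes Ibsp, Sp7 and Runx2 were also among the leading 15.

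Most marker lists of other cell types were lower in members than in other kept cells. The summed level of 6 glia markers was 9.64 to 20.8 CPM in WT members against 75.5 to 453 CPM in other cells, and each of the 6 was lower in members in all 4 captures. For 8 epithelial markers the ranges were 11.3 to 33.0 against 239.8 to 595 CPM, and for 7 endothelial markers 13.9 to 25.3 against 53.2 to 193 CPM, again with each gene lower in every capture. The 11 cartilage markers summed to 249.8 to 940.5 CPM in members against 1601 to 2827 CPM. The 12 osteoclast and macrophage markers summed to 14.04 to 116 CPM against 106 to 277 CPM, with 8 of the 12 lower in members in all 4 WT captures. The 5 hypertrophic cartilage markers went the other way, at 609.6 to 703 against 136 to 220.2 CPM, and 4 of them (Panx3, Mef2c, Ihh and Mmp13) are also expressed by osteoblasts. Erythroid markers varied most between captures, from 89.9 to 2720 CPM in WT members. The 5 tooth mesenchyme markers summed to 124.6, 79.1, 115.1 and 198.8 CPM in members of WT captures 1, 2, 4 and 5. In other cells they summed to 179.6, 79.3, 96.1 and 181.8 CPM. Only 1 of the 5 was lower in members in all 4 WT captures. Among them Dspp, the dentin matrix gene of odontoblasts, had no UMI in any member. Neuron markers summed to 101 to 492 CPM in WT members against 259 to 436 CPM in other cells, and members were the higher class in capture 4 (492 against 436 CPM). In reporter libraries 1 and 2 they summed to 674 and 771 CPM against 479 and 3338 CPM. Most of the WT sum came from Stmn2, a microtubule regulator, at 57.6, 217, 419 and 207 CPM in the WT captures.

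**Figure D1:**
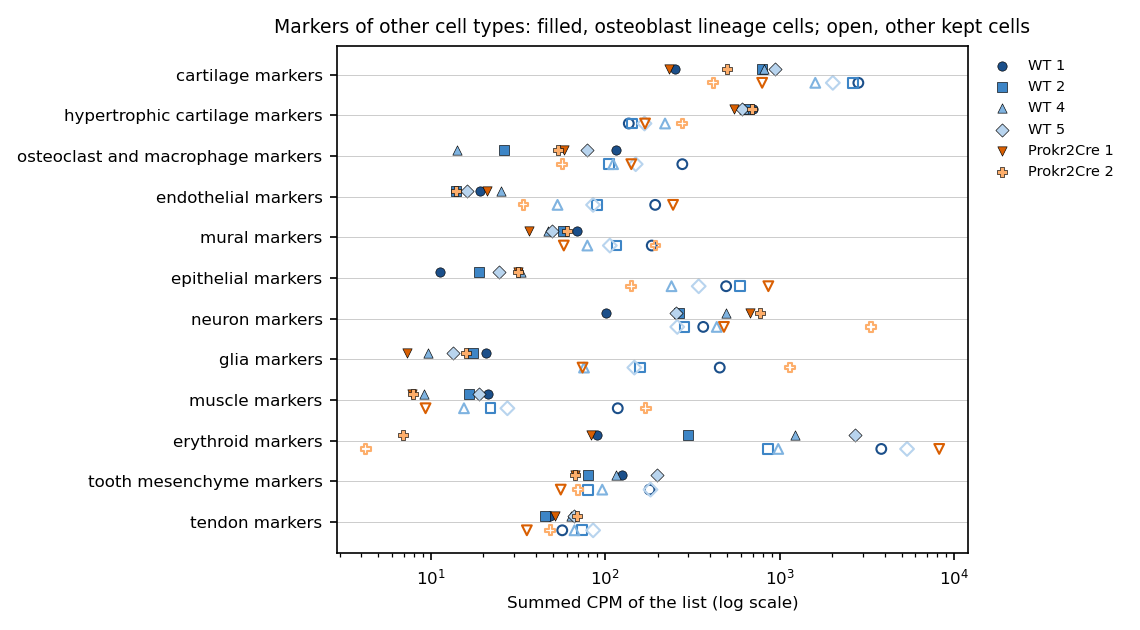
Summed CPM of 12 marker lists of other cell types (log axis), with filled symbols for osteoblast lineage cells and open symbols for the other kept cells of the same library. Glia, epithelial and endothelial lists lie well to the left in osteoblast lineage cells, whereas the hypertrophic cartilage list, which shares genes with bone, lies to the right.

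The edge of the rule was shallow. Of all members, 1377 held Sp7, 950 held Ibsp and 73 held Dmp1, and 779 entered on a single UMI of these 3 genes, 43.4% ± 2.15 (SD, n = 4) of the members of a WT capture. Alpl in members just inside the threshold, with 1 such UMI, was 160.1, 174, 207 and 135 CPM in WT captures 1, 2, 4 and 5. With 2 or more UMIs it was 349.7, 397, 320.4 and 392 CPM, and in Runx2-positive cells just outside, with none, 79.6, 62.6, 77.7 and 64.2 CPM. Col1a1, the major chain of type I collagen, was also highest with 2 or more UMIs, at 8764, 4780.4, 1287 and 1653 CPM. It was much alike just inside, at 1636, 960.2, 1007 and 1072 CPM, and just outside, at 1610.2, 1117, 1008 and 988 CPM. Free RNA bears on the single-UMI members. An Ibsp UMI was found in 7.63%, 1.67%, 0.213% and 0.794% of epithelial cells of WT captures 1, 2, 4 and 5 (median 11857, 8708, 10026 and 14196 UMIs per cell), and in 68.7%, 47.4%, 47.7% and 34.3% of members. Capture 1 thus had the highest background and also the most members that entered on 1 Ibsp UMI alone, 79 of 457. The part of free RNA in the member count was not tested.

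Members made up 5.87%, 4.10%, 5.96% and 7.72% of kept cells in WT captures 1, 2, 4 and 5 (mean 5.91% ± 1.48, SD, n = 4). Exact 95% binomial intervals, which cover counting error only, ran from 3.73% to 4.49% for capture 2 and from 6.83% to 8.69% for capture 5. Reporter library 1 was within the WT range at 6.93%, and reporter library 2 was above it at 14.5% (interval 12.5% to 16.7%). After every cell was thinned to 3000 UMIs the shares were 2.17%, 2.63%, 3.78% and 3.61% in the WT captures (mean 3.05% ± 0.773) and 2.17% and 7.38% in the reporter libraries, with 409, 1377, 573, 310, 86 and 13 shallower kept cells left out of these 6 libraries. The order of the WT captures changed after thinning, while reporter library 2 stayed highest. Membership itself was set again after thinning, so the cells counted differ too.

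Later cells made up 46.4%, 34.4%, 34.8% and 27.1% of members in WT captures 1, 2, 4 and 5 (35.7% ± 7.97, SD, n = 4) and 38.7% and 42.2% in reporter libraries 1 and 2. The libraries differed more at the top of the Ibsp range. Members with 50 or more Ibsp UMIs numbered 128 of 457 in WT capture 1, 66 of 430 in capture 2, 25 of 419 in capture 4 and 19 of 251 in capture 5, and the highest single cell held 3182, 1025, 565 and 791 Ibsp UMIs. Dmp1, a gene of the osteoblast to osteocyte transition, was found in 41 and 21 members of captures 1 and 2 and in 3 and 4 members of captures 4 and 5.

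**Figure D2:**
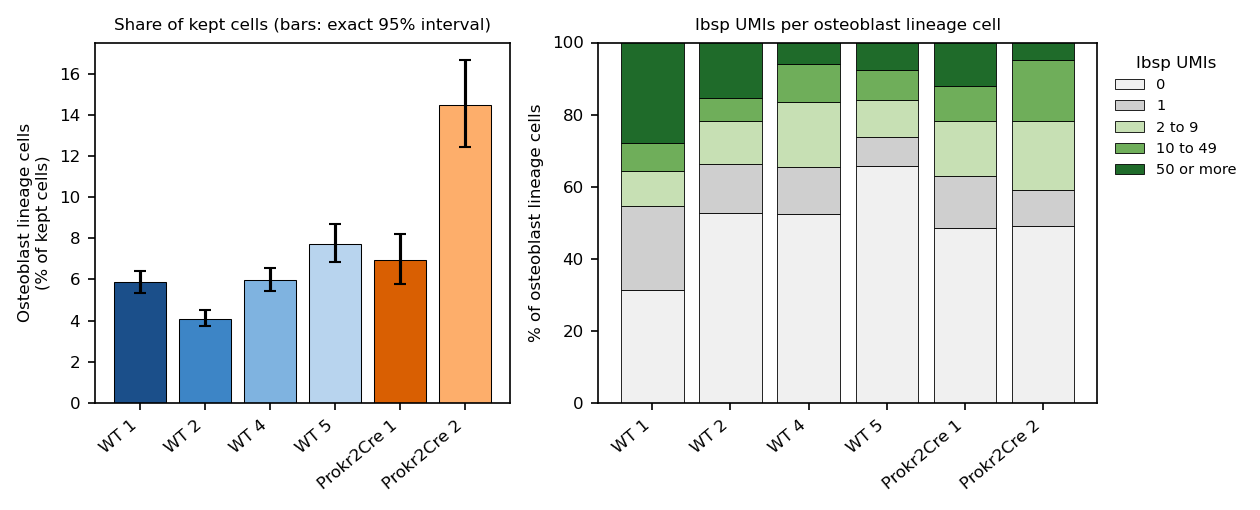
Left, osteoblast lineage cells as a percentage of kept cells in each library with exact 95% binomial intervals; right, the members of each library divided by their Ibsp UMIs. Reporter library 2 has the highest share (14.5%), and the class with 50 or more Ibsp UMIs is widest in WT capture 1 (28.0% of members).

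The first tested comparison asked how later members differ from early members of the same capture, over the 10706 genes that passed the filter on low counts and were not part of the rule. Later cells had higher levels of 10 of 16 mineral formation genes, of 19 of 25 genes that fold and export collagen and of Col1a1, and lower levels of Six2, Alx1, Mgp and Sfrp2. By edgeR's quasi-likelihood test on summed UMIs with the capture as a block, 1327 genes (12.4%) were higher and 708 (6.61%) lower in later cells at an adjusted p under 0.05, and the median log2 fold change of all tested genes was 0.00. In captures 4 and 5 alone, 562 genes (5.24%) were higher and 319 (2.98%) lower, and 788 of these 881 genes were also called over all 4 captures. With every cell thinned to 3000 UMIs, 550 genes were called. Because cells were divided by Ibsp and Spp1 UMIs of the same cells, the comparison shows which other genes go with them, and later cells were deeper in captures 1, 2 and 5 (median UMIs of 15873, 7720.5, 7600 and 16968 in later against 12427, 7575.5, 7824 and 14384 in early cells of captures 1, 2, 4 and 5).

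Of the mineral formation list, 10 of 16 tested genes were higher and 1 lower in later cells, with a median log2 fold change of 1.10. Phex, a membrane peptidase whose loss causes hypophosphataemic rickets, stood at 70.2, 141, 24.4 and 40.9 CPM in later cells of WT captures 1, 2, 4 and 5 and at 2.99, 2.63, 0.83 and 4.84 CPM in early cells. The groups did not overlap, although the early value of capture 4 rests on 2 UMIs, and the log2 fold change was 4.61 ± 0.32 (SE; edgeR adjusted p = 1.2e-05). Ifitm5 stood at 1862, 1751, 380.3 and 569 CPM in later and 78.5, 123, 27.5 and 43.5 CPM in early cells (log2 fold change 4.14 ± 0.16, edgeR adjusted p = 2.6e-07). Its later level was high in captures 1 and 2 and lower in captures 4 and 5, yet each exceeded every early value. Smpd3 (log2 fold change 2.77), Panx3 (2.33), the matrix protease Mmp13 (3.23) and Enpp1, which makes the mineral inhibitor pyrophosphate (2.01), were also higher. Alpl itself was higher by less, at 374, 482, 373 and 462 against 193, 219.5, 222 and 219 CPM (log2 fold change 1.13 ± 0.10, edgeR adjusted p = 4e-05). The growth factor Ptn was lower (-1.31). In captures 4 and 5 alone 7 of 15 genes were higher and 1 lower.

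In the bone matrix list, 10 of 22 tested genes were higher and 6 lower (median 0.36), and in captures 4 and 5 alone 9 were higher and 5 lower. Col1a1 stood at 10968, 7252, 1672 and 2095 CPM in later and 1488, 1187, 913 and 1138 CPM in early cells (log2 fold change 1.96 ± 0.34, edgeR adjusted p = 0.0025). Early levels were alike in the 4 captures, while later levels were several-fold higher in captures 1 and 2 than in captures 4 and 5. Sparc (osteonectin, a collagen-binding glycoprotein) had a log2 fold change of 2.09 and Omd (osteomodulin, a proteoglycan of bone) of 1.41. Of the 10 genes with the largest increases 3 were collagens: Col22a1 (6.40), Col11a2 (4.80) and Col24a1 (4.18). Mgp, an inhibitor of calcification, fell from 248, 239.7, 120.4 and 177 CPM in early to 67.4, 47.1, 17.1 and 20.4 CPM in later cells (log2 fold change -2.23 ± 0.19, edgeR adjusted p = 3.9e-05), without overlap. Also lower were Smoc2, a calcium-binding matrix protein (-1.43), Ogn, a small leucine-rich proteoglycan (-1.42), and Col3a1, the collagen of loose connective tissue (-0.54).

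In the list of collagen folding and export, 19 of 25 tested genes were higher and 1 was lower (median 1.08). Creb3l1 stood at 168, 239, 115 and 145 CPM in later and 33.7, 57.0, 35.0 and 41.1 CPM in early cells (log2 fold change 2.15 ± 0.13, edgeR adjusted p = 6e-06). The collagen prolyl isomerase Fkbp10 (1.66), the prolyl hydroxylase P3h1 (1.60), the collagen chaperone Serpinh1 (1.29) and the cross-linking enzyme Lox (2.11) were higher, and the related Loxl1 was lower (-1.41). In captures 4 and 5 alone the count was 14 of 25 higher and 1 lower.

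Among bone transcription factors the list divided: 4 of 26 were higher and 9 lower (median -0.16), or 4 and 8 in captures 4 and 5 alone. Dlx3, a homeobox factor of late osteoblasts, stood at 21.6, 57.7, 33.3 and 36.2 against 2.09, 4.38, 7.50 and 8.30 CPM (log2 fold change 2.88 ± 0.28, edgeR adjusted p = 9.8e-05). Mef2c (0.95) and Atf4 (0.69) were also higher. The 9 factors that were lower included Six2 (-1.82), Alx1 (-1.16), Prrx2 (-1.07) and Twist1, an inhibitor of Runx2 function (-0.64).

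Signalling genes changed in both directions. In the WNT list 5 of 25 tested genes were higher, led by the secreted WNT inhibitor Wif1 (2.47) and the transcription factor Tcf7 (1.60), and 5 were lower, led by Sfrp2, a secreted WNT-binding protein (-1.99), and the WNT enhancer Rspo3 (-1.46). In the BMP list 8 of 24 were higher, among them Smad9 (1.24) and Bmp3 (1.23), and 4 were lower, led by the antagonist Fst (-1.67) and the receptor Bmpr1b (-1.27). In the hedgehog list the ligand Ihh (1.32) was among 3 of 10 genes that were higher, and the co-receptor Cdon (-0.78) and the ligand-binding Hhip (-1.09) were among 5 that were lower. The hedgehog count lower was 2 without capture 4, 3 without capture 1, 2 or 5, and 1 with DESeq2. The BMP count higher was 5 without capture 1 or capture 2 and with DESeq2, and the BMP count lower was 2 without capture 2 and with DESeq2. Calls over all tested genes also fell in these fits, to 7.3%, 6.38% and 7.91% higher and 3.93%, 3.53% and 3.69% lower without capture 1, without capture 2 and with DESeq2. Without captures 4 and 5 in turn, 5.89% and 7.97% were lower. Of hormone and osteoclast signals 4 of 19 were higher and 4 lower, or 2 lower without capture 1. The vitamin D receptor Vdr stood at 19.7, 23.6, 24.4 and 20.4 CPM in later and 2.09, 2.19, 0 and 0.35 CPM in early cells and was called higher. Its early levels rest on 7, 5, 0 and 1 UMIs, so no fold change is given. The parathyroid hormone receptor Pth1r was higher by 1.49. In captures 4 and 5 alone 3 WNT genes were higher and 4 lower, 1 BMP gene higher and 2 lower, 2 hedgehog genes in each direction, and 4 hormone genes higher and 2 lower. Of 5 tested osteocyte genes 2 were higher, the WNT inhibitor Dkk1 (1.92) and the actin-capping Capg (1.25).

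The other named genes that were higher in later cells were Cgref1, a secreted calcium-binding protein (5.32), the stress-response gene Nupr1 (4.78), the citrate transporter Slc13a5 (4.22), the carbonic anhydrase Car3 (4.19) and Ramp1, a subunit of the CGRP receptor (4.06). Genes with the most negative changes were Sgcz, a sarcoglycan (-2.91), Csmd3 (-2.47), the short-chain collagens Col8a1 (-2.45) and Col8a2 (-2.04), the adhesion protein Alcam (-2.21), the transcription factor Foxp2 (-2.18), the scaffold Dlg2 (-2.15) and Igfbp2, which binds insulin-like growth factors (-1.98). Long genes were frequent among those that were lower: 21.4% of all genes called lower span more than 200 kb in the annotation, against 6.81% of tested genes and 8.06% of genes called higher. Of the named genes 5 of 10 that were lower and 3 of 10 that were higher do. Whether intronic reads were counted is not given in the sources used here, and the part of gene length in these calls was not tested.

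In the cell division list 0 of 26 genes were higher and 5 lower by edgeR, with a median log2 fold change of -0.42. This count moved with the captures used: it was 21 without capture 5, 3 without capture 1, 3 without capture 2, 23 in captures 1 and 2 alone and 0 in captures 4 and 5 alone. Of all tested genes 7.97%, 3.93%, 3.53%, 12.9% and 2.98% were lower in these fits. With all 4 captures kept, the count was 21 without the filter on low counts (6.37% of all genes lower) and 11 when members had to hold 2 UMIs of Sp7, Ibsp and Dmp1 (6.11%). Mki67, a marker of cycling cells, stood at 39.9, 47.9, 128 and 105 CPM in later and 79.1, 93.8, 223 and 67.1 CPM in early cells. It was lower in later cells of captures 1, 2 and 4 and higher in those of capture 5.

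Of other cell types, cartilage markers were lower in later cells for 5 of 8 tested genes and higher for none, and tooth mesenchyme markers were lower for 2 of 3. All 4 tested hypertrophic cartilage markers were higher (median 1.82), namely Panx3, Mef2c, Ihh and Mmp13. Osteoblasts also express these 4, and each is already counted in another list above. Of 3 hypertrophic cartilage markers tested in captures 4 and 5 alone, 2 were higher. Col10a1, the remaining marker of that list, was not among the tested genes. Whether hypertrophic cartilage cells are among the members was not tested. Of 3 neuron markers 1 was higher and 1 lower. The 1 tested endothelial gene, 1 of 2 mural and 1 of 3 tendon genes were lower. The endothelial call was lost with DESeq2, and these lists had no called gene when members had to hold 2 UMIs of Sp7, Ibsp and Dmp1. Neither of 2 osteoclast and macrophage genes was called, but 1 was higher when early cells had to lack any UMI of Ibsp or Spp1. That list summed to 126.1, 36.6, 21.9 and 13.4 CPM in later cells of WT captures 1, 2, 4 and 5. In early cells it summed to 104.8, 20.6, 10.0 and 107.8 CPM. Epithelial, glia, muscle and erythroid lists had no called gene among the 6 tested. The 1 tested epithelial gene was called higher in 4 alternatives, among them without capture 1 and in captures 4 and 5 alone, and the epithelial sum was 7.86, 17.1, 77.2 and 28.3 CPM in later cells of WT captures 1, 2, 4 and 5 against 14.9, 19.7, 10.4 and 23.2 CPM in early cells. All 3 tested erythroid genes were called lower without capture 5 and in captures 1 and 2 alone. The erythroid sum still differed widely by capture, at 83.7, 14.6, 27.6 and 8834 CPM in later cells of WT captures 1, 2, 4 and 5 against 96.4, 448, 1849 and 32.1 CPM in early cells.

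**Figure D3:**
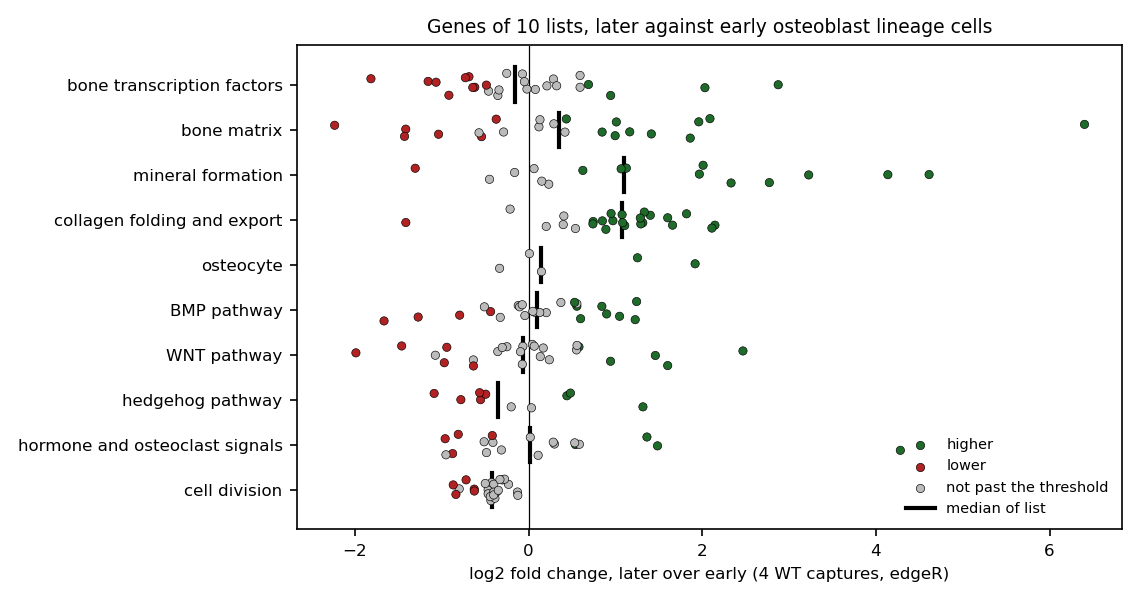
Log2 fold change of each tested gene of 10 lists in later against early osteoblast lineage cells over 4 WT captures, with black bars for list medians and colours for genes past the threshold. Mineral formation (median 1.10) and collagen folding and export (median 1.08) lie to the right, and cell division (median -0.42) to the left.

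Division of the members by their own Ibsp UMIs showed that these genes did not all begin to rise in the same class. Alpl was 204, 227, 214 and 210.4 CPM in members without Ibsp of WT captures 1, 2, 4 and 5, 270.2, 322, 284 and 319.6 CPM at 2 to 9 Ibsp UMIs and 404, 561, 576 and 768 CPM at 50 or more. It was thus already higher at 2 to 9 Ibsp UMIs in each capture, and at 10 to 49 it was 378, 519, 383 and 347 CPM. In captures 4 and 5 its largest step lay in the last class. Col1a1 was 1357, 1209.6, 960.2 and 1159.6 CPM without Ibsp, 1373, 1835, 1210.0 and 1126 CPM at 10 to 49 UMIs and 15812, 12391, 4233 and 4425 CPM at 50 or more. Most of its difference thus lay in the last class in each WT capture. Phex followed the same course, at 9.64, 46.8, 5.80 and 5.10 CPM in the class of 10 to 49 and 102, 237, 104 and 125 CPM in the class of 50 or more. Top2a, needed for chromosome separation in dividing cells, was lowest in that last class in each WT capture, at 63.5, 76.0, 149.8 and 99.5 CPM against 227, 269, 404 and 163 CPM without Ibsp. The last class held 128, 66, 25 and 19 cells, and its cells were the deepest in each WT capture, with medians of 17004, 9090, 8788 and 20293 UMIs. These classes are a description, since Ibsp also defined the members.

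**Figure D4:**
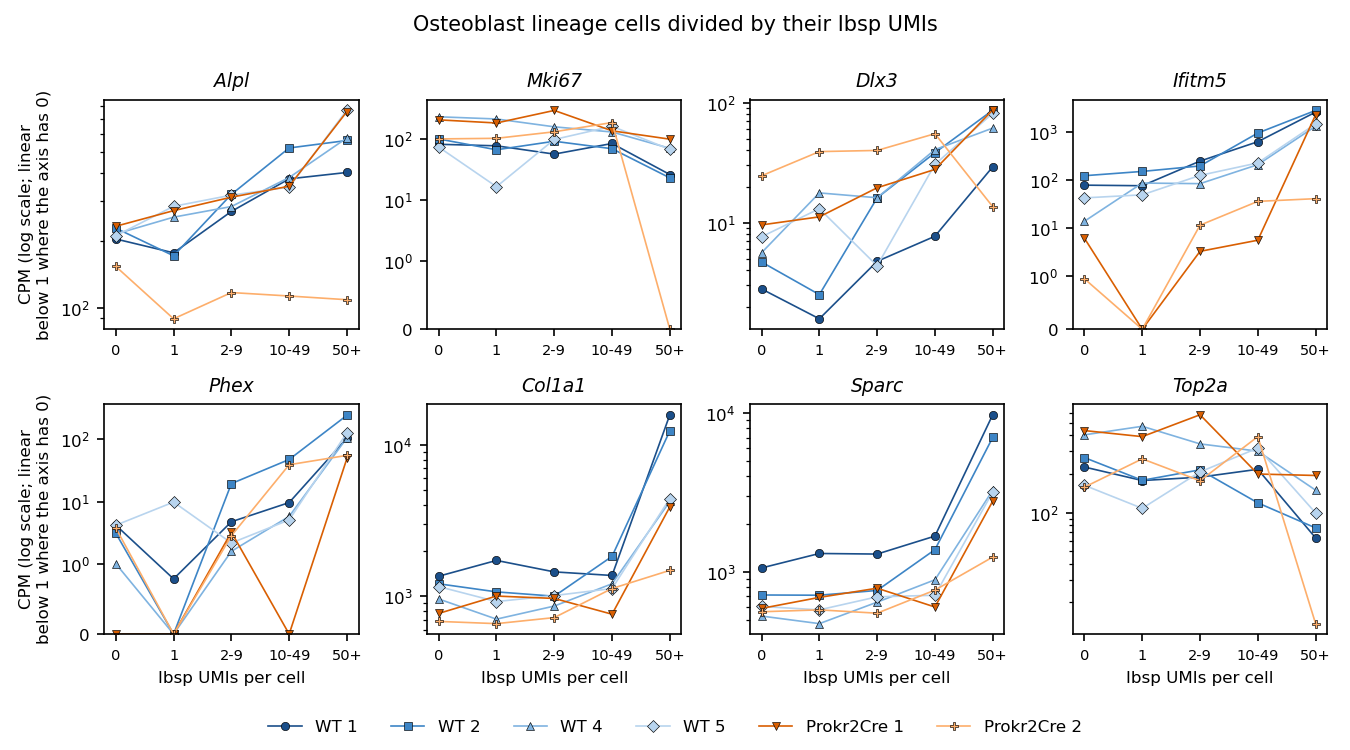
CPM of 8 genes in osteoblast lineage cells divided by their Ibsp UMIs, 1 line per library. Alpl is already higher at 2 to 9 Ibsp UMIs in each WT capture, whereas in the WT captures Col1a1, Sparc and Phex climb mainly in cells with 50 or more Ibsp UMIs, where Top2a is lowest in each WT capture.

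Osteocalcin marked a difference between captures. Bglap stood at 121, 27.6, 1.63 and 1.57 CPM in later cells of WT captures 1, 2, 4 and 5, and at 0, 1.75, 0 and 0 CPM in early cells. It was not detected in the members of reporter library 2, where 3 UMIs would correspond to 1.48 CPM. Only captures 1 and 2 were clearly above such a floor, and Bglap, Bglap2 and Mepe were too low to be tested. Ibsp, Spp1, Dmp1 and Mepe lie next to each other on chromosome 5, in a cluster of acidic matrix protein genes from Dmp1 (start 104202613) to Spp1 (end 104441050, GRCm38).

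Because Runx2 defines the members, the promoters of 3 bone matrix and mineral genes are shown with the core motif bound by RUNX proteins. They were chosen because these windows hold a match; Spp1 is a gene of the rule and Bglap was not tested, so only Mmp13 was tested in later cells. The letters ACCACA were searched on both strands in the 250 bases before each RefSeq gene start (GRCm38.p6). They were found in 14.05% of all 32851 promoters, in 4 of 19 promoters of the mineral formation list (14 of its 18 genes matched) in 3 of 18 of the bone matrix list (14 of 26 genes matched) and in 3 of 17 of collagen folding and export (15 of 26 genes matched). A match is not evidence of binding. The windows lie at chr5:104434861-104435110 (plus strand) for Spp1, chr3:88384467-88384716 (minus strand) for Bglap and chr9:7272264-7272513 (plus strand) for Mmp13. The bases after the Spp1 window shown were not found in an Spp1 transcript of the GENCODE annotation. Those after a second RefSeq start of Spp1 were, and its window holds no match. The window of Ibsp holds none either. In the sequences below, written 5′ to 3′ along the gene, capitals mark the motif, which starts 128, 132 and 118 bases before the start.
Spp1: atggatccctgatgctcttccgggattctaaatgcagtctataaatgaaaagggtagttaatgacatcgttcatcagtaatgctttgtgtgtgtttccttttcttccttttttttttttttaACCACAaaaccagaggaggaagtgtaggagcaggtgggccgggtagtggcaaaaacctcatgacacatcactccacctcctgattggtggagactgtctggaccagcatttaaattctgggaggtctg
Bglap: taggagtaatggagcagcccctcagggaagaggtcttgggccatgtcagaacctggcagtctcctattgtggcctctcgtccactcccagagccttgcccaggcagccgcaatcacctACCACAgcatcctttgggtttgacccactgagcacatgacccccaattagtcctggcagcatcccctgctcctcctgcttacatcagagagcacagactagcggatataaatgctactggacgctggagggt
Mmp13: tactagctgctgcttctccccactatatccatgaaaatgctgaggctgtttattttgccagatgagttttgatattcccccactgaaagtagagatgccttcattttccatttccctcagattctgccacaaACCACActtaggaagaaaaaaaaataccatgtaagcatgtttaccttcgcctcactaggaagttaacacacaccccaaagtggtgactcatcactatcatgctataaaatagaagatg

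The second comparison set the members against the nearest cells outside the rule, Runx2-positive cells of the same captures with no UMI of Sp7, Ibsp, Dmp1, Acan or Epcam, of which there were 6472 in the WT captures. Members were higher in 9 of 17 mineral formation genes and lower in 3, higher in 8 of 28 WNT pathway genes and lower in 15. They were higher in the homeobox factors Dlx3, Dlx5 and Dlx6 and in Tnfsf11 and Csf1, and lower in Pax9 and Osr2. Of 13461 tested genes 1936 (14.4%) were higher and 1773 (13.2%) lower in members. Members were the deeper class in each WT capture, with median UMIs of 13800, 7630.5, 7707 and 15098 against 9115.5, 5091, 6046 and 11564 in WT captures 1, 2, 4 and 5. With each cell thinned to 3000 UMIs 1468 genes were called. From captures 4 and 5 alone 1525 (11.2%) were higher and 1460 (10.7%) lower.

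Ifitm5 stood at 998, 693, 147 and 204 CPM in members and 13.0, 5.75, 1.43 and 1.35 CPM in the Runx2-positive cells (log2 fold change 6.80 ± 0.14, edgeR adjusted p = 8.2e-09), without overlap. Smpd3 had a log2 fold change of 5.21, Panx3 of 4.84, the sodium-calcium exchanger Slc8a3 of 4.10 and Alpl of 2.17, and in all 9 of 17 mineral formation genes were higher and 3 lower (7 and 2 of 16 in captures 4 and 5 alone). Other large changes were those of Col22a1 (5.72), Car3 (5.64), Cgref1 (4.76), Ramp1 (4.40), Fabp3 (3.83) and the sphingomyelin synthase Sgms2 (4.52). Bone transcription factors were higher in 9 of 26 cases and lower in 7 (10 and 8 in captures 4 and 5 alone). Dlx5 stood at 67.3, 115, 83.7 and 117 against 37.3, 32.8, 29.4 and 23.8 CPM (log2 fold change 1.74 ± 0.19, edgeR adjusted p = 0.00015), and Dlx3 (4.09) and Dlx6 (2.09) moved with it. Pax9 (-1.79), Foxc1 (-1.04) and Six2 (-0.71) were lower.

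Collagen folding and export was higher in 16 of 26 genes and lower in 2 (median 0.49), and bone matrix in 8 of 22 and lower in 5. The bone matrix count was 4 higher and 4 lower without capture 2, where 7.57% of all tested genes were higher and 8.02% lower. With only captures 4 and 5, 14 collagen folding genes were higher and 3 lower, and 9 bone matrix genes higher and 6 lower. Col1a1 had a log2 fold change of 1.21 ± 0.25 (edgeR adjusted p = 0.0056), and its level was 6374, 3311, 1170.3 and 1430.0 CPM in members against 1610.2, 1117, 1008 and 988 CPM. Members of capture 4 were only slightly above the Runx2-positive cells, and those of captures 1 and 2 far above.

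A pair of factors by which osteoblasts support osteoclasts was higher in members: Tnfsf11 (RANKL, the osteoclast differentiation factor) at 5.50, 5.41, 9.64 and 14.2 against 5.03, 2.49, 1.50 and 4.22 CPM (log2 fold change 1.48 ± 0.35, edgeR adjusted p = 0.011), and Csf1, the macrophage growth factor, by 1.23 on the log2 scale. Tnfsf11 hardly differed in capture 1. Vdr, at 11.1, 9.68, 8.26 and 6.48 against 0.31, 0.39, 0.45 and 0.24 CPM, and Pth1r (1.59) were higher, and the chemokine Cxcl12 (-1.22) and the hormone-related Pthlh (-1.27) lower, in a list with 6 of 21 higher and 9 lower. Vdr in the Runx2-positive cells rests on few UMIs, since 3 UMIs there correspond to 0.236, 0.233, 0.225 and 0.239 CPM. Ihh was higher by 4.29 and its receptor and target Ptch1 by 0.92, while the co-receptors Gas1 (-1.10), Boc (-1.26) and Cdon (-1.56) were lower. The WNT list had 8 of 28 genes higher (5 without capture 2), led by Tcf7 (3.15), Wif1 (1.75) and the secreted WNT-inactivating enzyme Notum (1.73), and 15 lower, led by Rspo2 (-1.43) and Rspo3 (-1.34). The BMP list had 8 of 26 higher, among them the ligand Bmp6 (1.55) and the antagonist Nog (1.18), and 7 lower, led by the antagonists Grem1 (-1.74) and Fst (-1.71).

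Cell division genes were higher in members in 18 of 26 cases and lower in none (median 0.45), with Ccnb1 (cyclin B1) at 0.68 and Top2a at 0.45. After thinning to 3000 UMIs 0 were higher and 1 was lower by edgeR (median 0.06), where 8.01% of all tested genes were higher and 6.6% lower, and without capture 2 the count was 9, where 7.57% of all tested genes were higher. The count in captures 4 and 5 alone was 17. Thinning also changed which cells were members, from 457 to 160 in WT capture 1, and the part of depth was not tested. The most negative changes of the comparison were those of Zfp804b (-2.55), Il1rapl2 (-2.24), the nuclear receptor Nr2f1 (-2.02), Ncam2 (-2.01), the transcription factor Ebf3 (-1.91), Lrrc4c (-1.88), Glis3 (-1.79), Mia (-1.76) and Osr2, a factor of palate mesenchyme (-1.75). Here too long genes were frequent among those that were lower, with 22.6% spanning more than 200 kb against 6.61% of tested genes.

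The third comparison set the members against cartilage cells, the other skeletal type of the nose, taken as cells with at least 1 Acan and 2 Col2a1 UMIs and none of Epcam, Sp7, Ibsp or Dmp1 (2428 in the WT captures). Of 11697 tested genes 1734 (14.8%) were higher and 1836 (15.7%) lower in members. Ifitm5 (9.13), Smpd3 (7.73), Car3 (7.06), Ramp1 (6.87), Tcf7 (5.62), Alpl (5.53), Fabp3 (4.83) and Npnt (4.39) were among the largest log2 fold changes. Alpl, for example, stood at 10.4, 3.68, 1.68 and 8.93 CPM in cartilage cells of WT captures 1, 2, 4 and 5, below every value in members (edgeR adjusted p = 2.2e-06). Bone transcription factors were higher in 17 of 26 cases and lower in 3, with Foxc1 the lowest (-2.04). Tnfsf11 (3.76) and Csf1 (2.11) were again higher, in a list with 11 of 19 tested genes higher and 4 lower.

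Genes known from cartilage were lower, led by the matrilin Matn1 (-9.68) and followed by Cnmd, an inhibitor of vessel growth (-7.59), Matn3 (-7.56), Susd5 (-7.51), the actin-severing Scin (-7.43), Cytl1 (-7.30), the link protein Hapln1 (-6.93), Col9a3 (-6.75) and Scrg1 (-6.57). The collagen machinery differed in direction from the earlier comparisons: 5 of 26 genes were higher, led by Creb3l1 (2.93) and Lox (1.90), and 11 were lower, led by the cross-linking enzyme Loxl3 (-4.20), with Plod2, a collagen lysyl hydroxylase, at -2.11 and Serpinh1 at -0.46. In captures 4 and 5 alone 4 were higher and 18 lower (median -0.62), and in captures 1 and 2 alone 7 were higher and 9 lower (median 0.04). Of all tested genes 14.2% were higher and 13.2% lower in captures 4 and 5 alone, and 10.5% and 11.2% in captures 1 and 2 alone. Cell division had 1 of 26 genes higher, 12 without capture 1, where 14.9% of all tested genes were higher, and 16 in captures 4 and 5 alone. It had 6 higher and 1 lower without the filter on low counts. Without capture 2, 4 or 5 it had 0 called, where 10.3%, 11% and 11.3% of all tested genes were higher. In captures 1 and 2 alone 0 were higher and 1 lower (median -0.10). After thinning to 3000 UMIs 0 were higher and 1 lower (median -0.25, main fit 0.11), where 10.9% of all tested genes were higher. Cartilage cells were shallower than members in each WT capture, with median UMIs of 11312, 5784, 7128 and 11941. In the BMP list 8 of 25 tested genes were higher and 4 lower (median -0.04). The antagonist Nog (-1.92) and the receptor Bmpr1b (-3.47) were among those lower, and Bmp6 (2.36) among those higher.

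**Figure D5:**
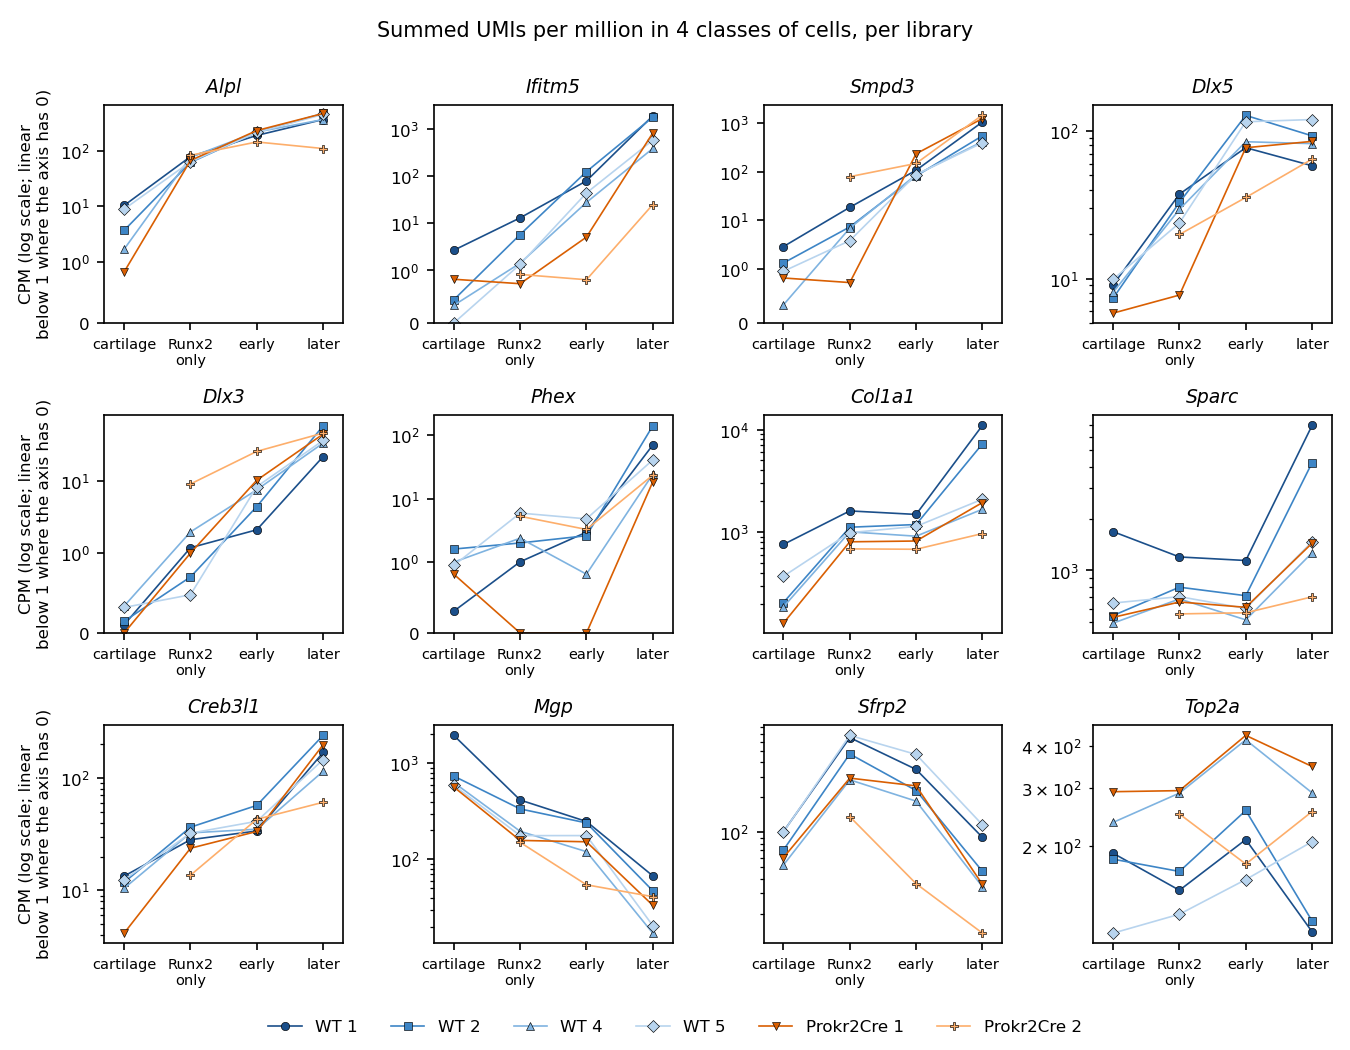
CPM of 12 genes in cartilage cells, Runx2-positive cells without Sp7, Ibsp and Dmp1, and early and later osteoblast lineage cells, 1 line per library; the cartilage point of reporter library 2 (5 cells) is left out. Alpl, Ifitm5 and Dlx3 climb from left to right in the WT captures, Mgp is lowest in later cells, and reporter library 2 departs in Alpl and Ifitm5.

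The reporter nose was not used in these fits, so its libraries give a separate description. Of the 775 genes higher in later cells that reached a mean of 50 CPM over the WT captures in the higher class, 89.0% were also higher in later cells of reporter library 1 and 66.1% in those of library 2, against 44.3% and 41.4% of all 3459 tested genes of that level. Of the 339 that were lower, 92.3% and 76.4% were lower too, against 55.6% and 58.5%. The 10 named genes that were higher were all higher in both libraries, and of the 10 that were lower all were lower in library 1 and 9 in library 2. Of the named genes against Runx2-positive cells, 10 of 10 had the WT direction in library 1 both ways, and in library 2 7 of the 10 higher and 7 of the 10 lower. Against cartilage cells library 1 again had 10 of 10 both ways, and library 2, with 5 cartilage cells, 10 higher and 8 lower. Of all 3581 tested genes of that level in this comparison, 50.3% and 56.1% were higher in libraries 1 and 2, and 49.7% and 43.8% lower. Library 2 nevertheless departed in the members themselves. Ifitm5 stood at 303 and 10.4 CPM in reporter libraries 1 and 2, Ramp1 at 84.1 and 2.47 CPM and Col22a1 at 38.4 and 1.48 CPM, so that library 2 was below every WT capture in all 3. Smpd3 stood at 604 and 672 CPM, Wif1 at 131 and 379 CPM and Bmp3 at 74.0 and 193 CPM, with library 2 above every WT capture. Alpl was 481 and 112 CPM in later and 236 and 147 CPM in early cells, so that in library 2 alone later cells were the lower class. Library 2 held 161 members. Both libraries came from 1 suspension of 1 nose, so these departures lie between its 2 preparations, and their cause was not tested.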

How the data were processed

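Whole noses of mouse embryos were profiled by droplet single-cell RNA sequencing. The deposited matrices hold raw UMI counts per gene and cell barcode. Per the submitters' processing notes, Cell Ranger 4, Seurat 4.3.0 and mm10 were used, whereas per the file headers the matrices came from Cell Ranger 6.0.1 (WT replicate 1), 7.0.0 (the other WT libraries) and 6.1.2 (both reporter libraries); whether intronic reads were counted is not given in the sources used here. A cell was kept if 500 or more genes were detected in it and no more than 10% of its UMIs were mitochondrial, and the 30355 genes present in all 7 libraries were used. The members and gene lists were chosen with earlier results of these data known. Scrublet's automatic threshold marked at most 2.22% of barcodes in any library and under 0.5% in all but 1, so doublets were removed only in an alternative, at 0.8% per 1000 barcodes.

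UMIs were summed per capture and class and tested with edgeR 4.0.16 (R 4.3.3; quasi-likelihood test, TMM, filterByExpr, capture as block, two-sided, Benjamini-Hochberg adjusted p under 0.05), with both classes of a capture paired by that capture. Genes of the rule were left out of the tests, as was Col2a1 against cartilage. Named genes were the 10 largest called changes in each direction with the same sign in every capture and a mean of at least 50 CPM in the higher class (Gm, mt-, Rpl, Rps and Rik genes left out), and genes of the lists. DESeq2 1.42.0 was an alternative. Python 3.11.15, scanpy 1.11.5, numpy 2.4.6, scipy 1.17.1 and pandas 2.3.3 were used. On simulated counts for later against early cells (10480 genes), 75.8% of 2-fold and 100% of 4-fold changes were recovered, with 3 false calls among 172. The simulation gave all genes the same dispersion and each changed gene the same fold in every capture. It also changed far fewer genes than were called in the data, so these rates need not hold for the data. Intervals are exact (Clopper-Pearson) at 95%. Some genes that this rule for named genes selects are not reported here.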

Additional observations from a re-analysis of the deposited data

Results flagged for a closer look

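Of 16 measures examined over the 4 WT captures, 2 had 1 capture far from the others, where chance gives about 1 in 20. After thinning to 3000 UMIs, 68.75% of osteoblast lineage cells of WT capture 1 were later, against 38.9% to 42.9% in captures 2, 4 and 5. Bglap, the osteocalcin gene, stood at 62.5 CPM in the osteoblast lineage cells of the same capture, against 0.480 to 10.8 CPM in the other 3. WT capture 1 also had the highest share of epithelial cells with an Ibsp UMI, 7.63%. It was the only WT library from Cell Ranger 6.0.1. Its members held the lowest level of Runx2, which the rule requires, of the 4 WT captures. Thinning took them from 457 to 160 cells. The part of each of these in the flagged values was not tested.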

How the results depend on the processing

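Called genes numbered 2035 in later against early cells, 3709 against Runx2-positive cells and 3570 against cartilage cells. Without the replicate block, which pairs the classes of a capture, they numbered 189, 170 and 901. Thinned to 3000 UMIs they numbered 550, 1468 and 1618. DESeq2 called 1242 in later against early cells. Leaving out each WT capture in turn gave 1093 to 2060, 2103 to 3467 and 2408 to 3420; the count in later against early cells was 1172 without capture 1 and 1093 without capture 2. Captures 1 and 2 alone gave 3158 and captures 4 and 5 alone 881 in later against early cells, both chosen after seeing the data. The cause of these differences was not tested. The mean share of members moved from 5.91% to 3.05% when thinned and to 3.35% when 2 UMIs of Sp7, Ibsp and Dmp1 were required, and the share of later cells from 35.7% to 47.8% and 62.2%. No fold change named in the text reversed; of 58, 48 and 28 genes, 27, 22 and 26 kept their call in every alternative that tested them, and 31 of 63, 26 of 36 and 2 of 2 lost calls came without the block. Bglap, Mepe and Dmp1 were near the level of a few UMIs in captures 4 and 5, and depth limits classes of few cells.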

Other observations

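Markers of neurons were not uniformly absent from osteoblast lineage cells. Against cartilage cells, the 3 tested neuron genes were all higher by edgeR (adjusted p under 0.05), where 14.8% of all tested genes were higher. Against Runx2-positive cells without Sp7, Ibsp and Dmp1, 2 of 5 neuron genes were higher and 2 lower, where 14.4% of all tested genes were higher and 13.2% lower. Of 4 tested tendon genes 3 were lower in that comparison, and of 10 cartilage genes 9 were lower and 1, Sox6, was higher.

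Direction in the reporter libraries was also counted for the calls against Runx2-positive cells. Of 1019 genes called higher, 85.7% were higher in library 1 and 54.8% in library 2, against 46.0% and 46.2% of all 3579 tested genes of that level. Of 581 called lower, 93.8% and 65.2% were lower there, against 53.9% and 53.8% of all tested genes.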
